A study of Mus musculus with 6 samples.

Results

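The genes described here encode 10 amino acid transporter proteins: Slc7a5, Slc3a2, Slc7a3, Slc7a11, Slc7a1, Slc38a2, Slc1a5, Slc1a4, Slc6a9 and Slc7a6. They were taken by symbol from the 26191 genes of a deposited table of FPKM, an abundance per kilobase of transcript that is also scaled to the mapped fragments of a library, and all 10 were found. The list itself was chosen by measured values, since the difference in FPKM between mutant and control hearts was known when the genes were picked, so levels, fold changes and counts of these genes are a description and carry no test. The control hearts were Mrps5 fl/fl, and the mutant hearts Mrps5 fl/fl; cTNT-Cre, so that Mrps5 was floxed in every library and only the mutants carried Cre. All were mouse hearts of embryonic day 12. Cre was driven by the cardiac troponin T promoter, which removes Mrps5, which encodes a protein of the small mitochondrial ribosomal subunit, from cardiomyocytes and leaves it in the other cells of the heart. There were 3 libraries in each group, each from a pool of several hearts, made from RNA depleted of ribosomal RNA. Values of single libraries are given in the order of replicates 1, 2 and 3. The labels do not say whether replicate numbers pair the groups, which were compared as unpaired.

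Amino acids cross the plasma membrane through carriers that differ in substrate and in the ion or amino acid they exchange. Members of the SLC7 family fall into those that work alone, such as the arginine and lysine carriers Slc7a1 and Slc7a3, and light chains, such as Slc7a5, Slc7a6 and Slc7a11, that reach the membrane bound to the heavy chain Slc3a2. Slc38a2, Slc1a5 and Slc1a4 carry small neutral amino acids with sodium, and Slc6a9 carries glycine. When amino acids are short or an organelle is stressed, phosphorylation of eIF2alpha favours translation of the transcription factor ATF4, which is known to act at genes of several of these carriers through C/EBP-ATF response elements.

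Promoter windows from RefSeq (build GRCm38.p6, from 250 bases before to 50 after a start site) were read for 7 of the 10 genes. Those of Slc7a5, Slc7a3 and Slc1a5 were not analysed here. The windows were searched on both strands for TGATGNAA, the core of the C/EBP-ATF element, and for TGACNNNGC, the core of the antioxidant response element that NRF2 binds. No match of one core overlapped a match of the other in these genes. The C/EBP-ATF core was in the windows of Slc7a11 and Slc1a4, 2 of 7 genes, where 4.51% of the 27025 genes with a window held it. Slc7a11 held 2 copies in opposite directions, with the first bases 66 and 47 bases before the start, and Slc1a4 held 1 copy, across the start site. The antioxidant core was in the windows of 4 of the 7 genes, Slc6a9, Slc7a1, Slc7a6 and Slc38a2, where 14% of all genes held it, and Slc6a9, Slc7a1 and Slc7a6 have more than 1 window each. These matches describe letters in a window and not binding. The stretches shown here are the ones that hold the C/EBP-ATF core and, for the most abundant transporter, the antioxidant core, each 5′ to 3′ on the gene's strand with the core in capitals. The Slc7a11 stretch is chr3:50443614-50443743 on the minus strand, the Slc1a4 stretch chr11:20332710-20332843 on the minus strand, and the Slc38a2 stretch chr15:96699729-96699858 on the minus strand.
Slc7a11: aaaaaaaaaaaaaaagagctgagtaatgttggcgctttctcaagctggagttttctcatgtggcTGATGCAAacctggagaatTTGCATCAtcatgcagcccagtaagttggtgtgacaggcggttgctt
Slc1a4: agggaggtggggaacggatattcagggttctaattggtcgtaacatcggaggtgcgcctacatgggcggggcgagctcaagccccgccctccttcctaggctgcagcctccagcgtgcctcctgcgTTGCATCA
Slc38a2: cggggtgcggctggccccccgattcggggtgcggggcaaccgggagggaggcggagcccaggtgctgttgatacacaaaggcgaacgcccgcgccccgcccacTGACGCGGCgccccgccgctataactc

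Across the libraries, summed FPKM lay between 454692 and 515952, and the number of reads behind a value is not known. The 8 cardiomyocyte markers, Tnnt2 and Myh7 among them, were all present, at a summed level of 4490 to 5060 FPKM in control and 3410 to 4290 FPKM in mutant hearts. In bulk tissue, fewer cells of a type and less RNA per cell cannot be told apart. Mrps5 itself was at 9.65, 11.4 and 10.4 FPKM in controls, against 5.28, 7.41 and 10.4 FPKM in mutants. The library labelled mutant replicate 3 thus went against its label on the deleted gene, although a gene sum of FPKM can include transcripts that lack the deleted part. Erythroid markers, of which 15 of 19 were in the table and none was at 0 in all libraries, made up 12.3%, 13.3% and 12% of summed FPKM in the controls and 23.5%, 10.8% and 22% in the mutants. Liver markers, whose summed level was 21.5 to 281 FPKM in control and 85.5 to 173 FPKM in mutant hearts, varied within both groups.

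For 8 of the 10 transporters all mutant libraries lay above all controls, while the groups overlapped for Slc38a2, whose mean was higher in mutants, and for Slc7a6, whose ratio of mutant to control means was 0.944. The genes were compared by limma on log2(FPKM + 1) over 13260 genes that reached 1 FPKM in 3 or more libraries, on a scale that shrinks the fold change of weakly expressed genes. Slc7a11 did not pass this filter, and Slc7a3 passed it only through the mutant libraries, so its place among the genes tested is tied to its being high there. Among the 9 tested, 8 had an unadjusted p under 0.05 and a higher mutant level, where 5.57% of all genes tested did, and 7 had mutant libraries all above the controls, where 7.74% of all genes did. At an adjusted p under 0.05, the threshold met by 0.0830% of all genes, there were 2, Slc7a5 and Slc3a2. Since the comparison that picked the genes also gives these counts, nothing is read from them. The median log2 fold change was 0.87 over the 9 genes and -0.02 over all genes tested. The count of 2 was 6 without mutant replicate 3, 5 without mutant replicate 2 and 1 without any single control replicate, whereas the count of 8 was 7 or 8 without any single library.

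**Figure D1:**
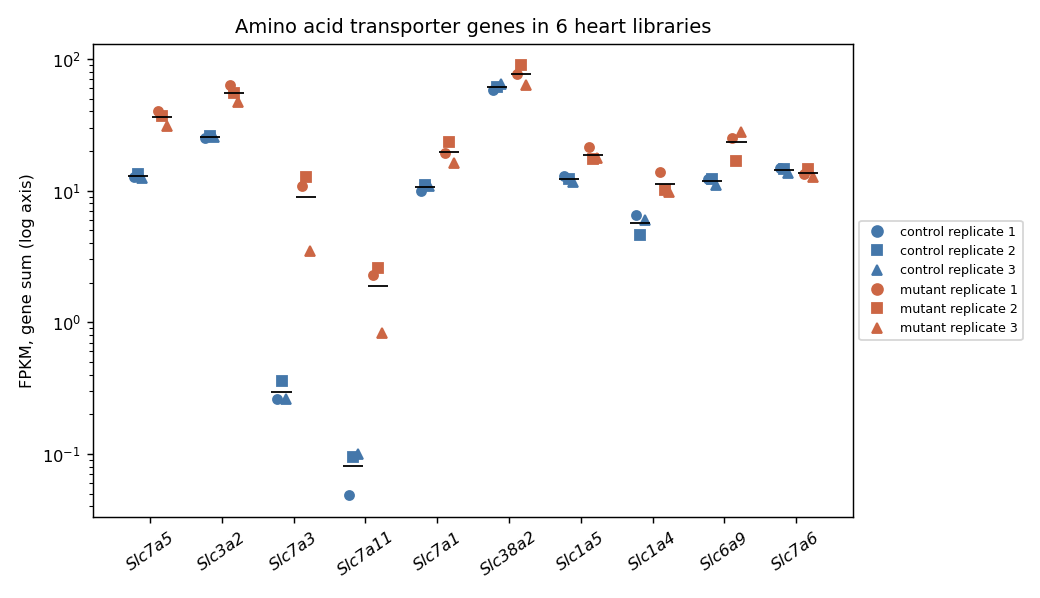
Levels of the 10 transporter genes in each library, as gene sums of FPKM on a log axis, with control libraries in blue, mutant libraries in red and a black bar at each group mean. The mutant points lie above the control points for 8 genes, overlap them for Slc38a2 and lie among or below them for Slc7a6.

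Slc3a2 (ENSMUSG00000010095), the heavy chain also known as CD98, was at 25.2, 26.2 and 25.4 FPKM in controls, against 63.6, 54.9 and 47.3 FPKM in mutants. Every mutant library was well above the narrow control range. Its mean level was 25.6 ± 0.489 FPKM (SD, n = 3) in control and 55.3 ± 8.13 FPKM (SD, n = 3) in mutant hearts, a ratio of 2.16, and on the log2 scale the difference was 1.07 (standard error, SE, 0.11).

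The light chain Slc7a5 (ENSMUSG00000040010), or LAT1, exchanges large neutral amino acids such as leucine and phenylalanine. It was at 12.7, 13.3 and 12.5 FPKM in controls, against 40.4, 37.1 and 30.8 FPKM in mutants. The mean level was 12.8 ± 0.417 FPKM in controls (SD, n = 3) and 36.1 ± 4.88 FPKM in mutants (SD, n = 3), a ratio of 2.81, with a log2 fold change of 1.41 (SE 0.11). The groups were far apart in relation to the spread within them, and the lowest mutant library was mutant replicate 3, as for Slc3a2.

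Slc7a6 (ENSMUSG00000031904), or y+LAT2, pairs with the same heavy chain and exchanges cationic for neutral amino acids. It was at 14.8, 14.7 and 13.5 FPKM in controls, against 13.4, 14.5 and 12.7 FPKM in mutants, and the groups overlapped. Its log2 fold change was -0.08, with a 95% interval of -0.28 to 0.12. The level of Slc7a5 relative to Slc7a6, compared per transcript length, was 0.855, 0.908 and 0.925 in controls, against 3.02, 2.55 and 2.42 in mutants. In control hearts Slc7a6 was therefore the more abundant light chain of this pair, and in mutant hearts Slc7a5 was.

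Slc7a11 (ENSMUSG00000027737), or xCT, takes up cystine in exchange for glutamate and supplies cysteine for glutathione. It was nearly undetected in controls, at 0.0485, 0.094 and 0.0999 FPKM, and reached 2.27, 2.6 and 0.835 FPKM in mutants. Mutant libraries were all above the controls, but at such low FPKM with unknown depth the counting error cannot be given. Its mean level was 0.0808 ± 0.0281 FPKM (SD, n = 3) in control and 1.9 ± 0.939 FPKM (SD, n = 3) in mutant hearts. Without the filter on low values its log2 fold change was 1.37, a value that the added 1 FPKM makes small beside a ratio of means of 23.5.

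Summed over Slc7a5, Slc7a6, Slc7a7, Slc7a8, Slc7a10 and Slc7a11, the light chains of Slc3a2 were at 33.4, 33.7 and 32.2 FPKM in controls, against 62.9, 63.4 and 50.4 FPKM in mutants. Slc7a5 was 38% to 39.5% of this sum in control libraries and 58.5% to 64.3% in mutant libraries. The sum over the level of Slc3a2 was 1.32, 1.29 and 1.27 in controls, against 0.989, 1.15 and 1.07 in mutants. Slc3a2 and the sum of its light chains were thus both higher in mutant hearts, and the sum per unit of Slc3a2 was lower in every mutant library. Not all light chains were higher. Ratios of mutant to control means were 2.81 for Slc7a5, 1.55 for Slc7a7 and 23.5 for Slc7a11, against 2.16 for Slc3a2. They were 0.944 for Slc7a6, 0.752 for Slc7a8 and 0.94 for Slc7a10, where the groups overlapped.

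**Figure D2:**
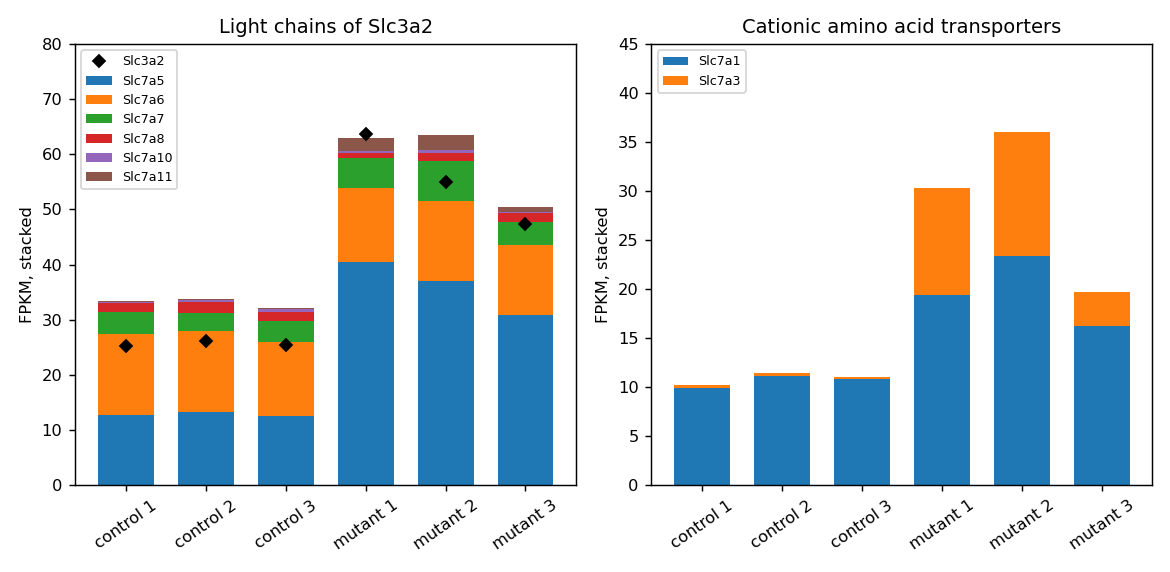
Stacked FPKM of the light chains of Slc3a2, with the level of Slc3a2 itself as black diamonds, and of the cationic carriers Slc7a1 and Slc7a3, in each of the 6 libraries. Slc7a5 takes up most of the light chain sum in the mutant libraries, and Slc7a3, nearly absent from controls, is 17.7% to 36% of the cationic pair there by gene sums, with a mean ratio to Slc7a1 of 0.439 that was 0.225 for the most abundant transcripts.

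Slc7a1 (ENSMUSG00000041313), or CAT1, is the widespread carrier of arginine, lysine and ornithine. It was at 9.94, 11.1 and 10.8 FPKM in controls, against 19.4, 23.4 and 16.2 FPKM in mutants. All mutant libraries were above the controls, and the mean level was 10.6 ± 0.599 FPKM (SD, n = 3) in control and 19.7 ± 3.59 FPKM (SD, n = 3) in mutant hearts, with a log2 fold change of 0.82 (SE 0.13).

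Slc7a3 (ENSMUSG00000031297), or CAT3, carries the same amino acids and is known mainly from brain and embryo. It was at 0.261, 0.358 and 0.261 FPKM in controls, against 10.9, 12.6 and 3.48 FPKM in mutants, the widest separation of the 10 genes on the log2 scale used here. Mutant replicate 3 stood well below the other mutants and was still far above the controls. Mean levels were 0.293 ± 0.0556 FPKM (SD, n = 3) in controls and 9.01 ± 4.86 FPKM (SD, n = 3) in mutants. On the log2 scale the difference was 2.80 (SE 0.37), and 4.35 where 0.1 FPKM was added in place of 1. Slc7a3 made up 2.37% to 3.12% of the summed FPKM of Slc7a1 and Slc7a3 in control libraries, and 36%, 35% and 17.7% in mutant replicates 1, 2 and 3. The mutant mean of the ratio of Slc7a3 to Slc7a1 was 0.439 for gene sums and 0.225 for the most abundant transcript of each gene. The summed FPKM of the pair was at 10.2, 11.5 and 11 FPKM in controls, against 30.4, 36.0 and 19.7 FPKM in mutants.

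The 3 transcripts of Slc7a3 shared its level unevenly. In all control libraries the whole of it was listed under ENSMUST00000113710, which held 67.9%, 48% and 8.62% of the gene in mutant replicates 1, 2 and 3. The transcript ENSMUST00000101362 held 6.52 FPKM in mutant replicate 2, and ENSMUST00000073927 held 2.96 FPKM in mutant replicate 3 and under 0.1 FPKM in the other libraries. Which transcript carried the gene sum thus differed between mutant libraries. For the other 9 genes a single transcript held between 88.1% and 100% of the level in every library.

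Slc38a2 (ENSMUSG00000022462), or SNAT2, takes up alanine, serine, glutamine and other small neutral amino acids with sodium. It was the most abundant of the 10 genes in both groups, at 58.5, 61.1 and 64.8 FPKM in controls, against 77.3, 89.2 and 63.3 FPKM in mutants. Mutant replicates 1 and 2 were above the controls, and mutant replicate 3 lay among them. On the log2 scale the difference was 0.30 (SE 0.13), the smallest among the 8 genes whose unadjusted p was under 0.05, and that threshold was missed in 8 of 15 alternatives, among them equal sums and leaving out any single library but mutant replicate 3. The difference was 0.18 without mutant replicate 2 and 0.43 without mutant replicate 3. The mean was 61.5 ± 3.15 FPKM (SD, n = 3) in controls and 76.6 ± 13.0 FPKM (SD, n = 3) in mutants.

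Slc1a5 (ENSMUSG00000001918), or ASCT2, exchanges glutamine and other neutral amino acids. It was at 12.8, 12.2 and 11.6 FPKM in controls, against 21.3, 17.3 and 17.8 FPKM in mutants, without overlap. Means were 12.2 ± 0.619 FPKM (SD, n = 3) in controls and 18.8 ± 2.21 FPKM (SD, n = 3) in mutants, with a log2 fold change of 0.58 (SE 0.10). Slc1a4 (ENSMUSG00000020142), or ASCT1, which exchanges serine, alanine and cysteine, was at 6.48, 4.58 and 5.93 FPKM in controls, against 13.8, 10.1 and 9.83 FPKM in mutants. Means were 5.66 ± 0.98 and 11.2 ± 2.22 FPKM (SD, n = 3), and on the log2 scale the difference was 0.87 (SE 0.16), with mutant libraries again all above controls. The level of Slc1a5 relative to Slc1a4 was 1.98, 2.66 and 1.95 in controls, against 1.55, 1.72 and 1.82 in mutants, so that the less abundant carrier of the pair was the one with the larger fold change.

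Slc6a9 (ENSMUSG00000028542), or GlyT1, takes up glycine with sodium and chloride and is known in neural tissue and in red cell precursors, which use glycine to make heme. It was at 12.2, 12.2 and 11 FPKM in controls, against 25.3, 16.7 and 28.0 FPKM in mutants, and the groups did not overlap. Means were 11.8 ± 0.68 FPKM (SD, n = 3) in controls and 23.3 ± 5.91 FPKM (SD, n = 3) in mutants, and on the log2 scale the difference was 0.90 (SE 0.17). Unlike the other 9 genes, Slc6a9 was highest in mutant replicate 3, and mutant replicates 1 and 3 were the libraries with the higher erythroid marker levels. In mutant replicate 2, where erythroid markers were below those of every control, Slc6a9 was still above every control. With the summed erythroid markers as a covariate in the fit, the log2 fold change was 0.60 for Slc6a9 against 0.90 without it. It was also lower for Slc1a4 (0.79 against 0.87), Slc1a5 (0.49 against 0.58) and Slc3a2 (1.05 against 1.07). It was higher for Slc7a5 (1.43 against 1.41), Slc7a3 (3.16 against 2.80), Slc7a1 (0.98 against 0.82), Slc38a2 (0.45 against 0.30) and Slc7a6 (-0.02 against -0.08).

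Among 21 other transporters that passed the filter, 4 had the same order of libraries, with mutant replicate 3 above mutant replicate 1 and both above mutant replicate 2 and all controls. Of all genes tested, 4.57% had this order, which was looked for after the values of Slc6a9 were seen. They were Slc38a5, Slc43a1, Slc38a10 and Slc16a10, of which all but Slc38a5 were singled out after their values were seen. Slc43a1, or LAT3, was at 16.3, 19.9 and 15.1 FPKM in controls, against 22.9, 16.9 and 33.9 FPKM in mutants. The part of the erythroid cells in these levels was not tested.

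**Figure D3:**
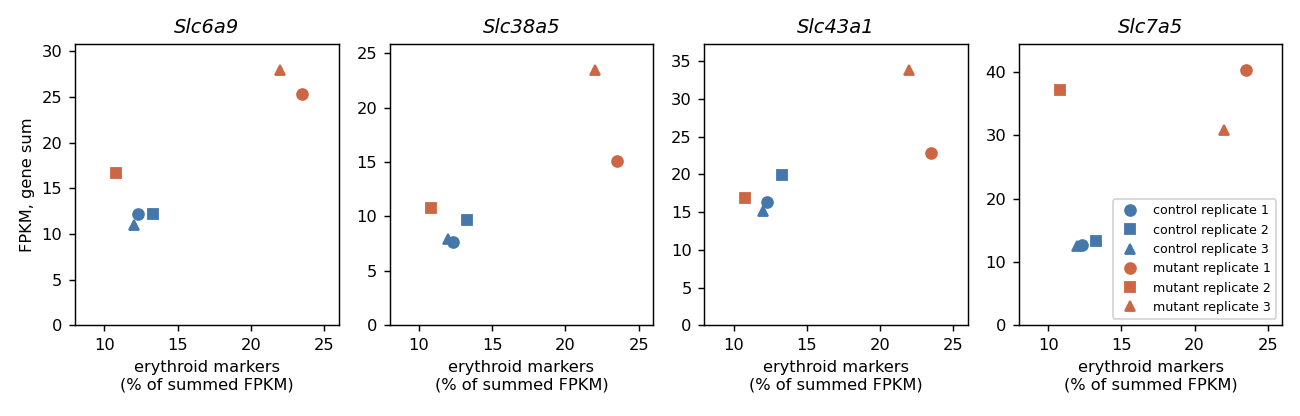
Level of Slc6a9, Slc38a5, Slc43a1 and Slc7a5, as gene sums of FPKM, against the percentage of summed FPKM taken by erythroid markers, with 1 point for each library. Mutant replicates 1 and 3 lie at 23.5% and 22% and hold the highest levels of the first 3 genes, whereas Slc7a5 is at 37.1 FPKM in mutant replicate 2, which lies at 10.8%.

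Ordered by mean level, the control hearts had Slc38a2, then Slc3a2, Slc7a6, Slc7a5, Slc1a5, Slc6a9, Slc7a1, Slc1a4, Slc7a3 and Slc7a11. Neighbours from Slc7a5 to Slc7a1 overlapped in their libraries and are not set apart. In mutant hearts the order was Slc38a2, Slc3a2, Slc7a5, Slc6a9, Slc7a1, Slc1a5, Slc7a6, Slc1a4, Slc7a3 and Slc7a11, and the ranges overlapped between Slc38a2 and Slc3a2, along Slc6a9, Slc7a1 and Slc1a5, and along Slc7a6, Slc1a4 and Slc7a3.

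The mutant libraries differed among themselves. Mutant replicate 3 was the lowest of the mutants for 8 of the 10 genes, and mutant replicate 2 for the remaining 2, Slc1a5 and Slc6a9. Relative to the control mean of log2(FPKM + 1), the mutant libraries 1, 2 and 3 were at 1.58, 1.46 and 1.20 for Slc7a5, at 1.28, 1.07 and 0.86 for Slc3a2 and at 0.82, 1.07 and 0.57 for Slc7a1. Mutant replicate 3 was also the mutant library with Mrps5 at the control level, and the part of this in the order was not tested. Without mutant replicate 3, the log2 fold change was 1.52 for Slc7a5, 3.30 for Slc7a3 and 0.95 for Slc7a1, each above its value over all libraries. That of Slc6a9 was 0.76 against 0.90. These directions follow from its being the lowest mutant library for Slc7a5, Slc7a3 and Slc7a1 and the highest for Slc6a9.

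**Figure D4:**
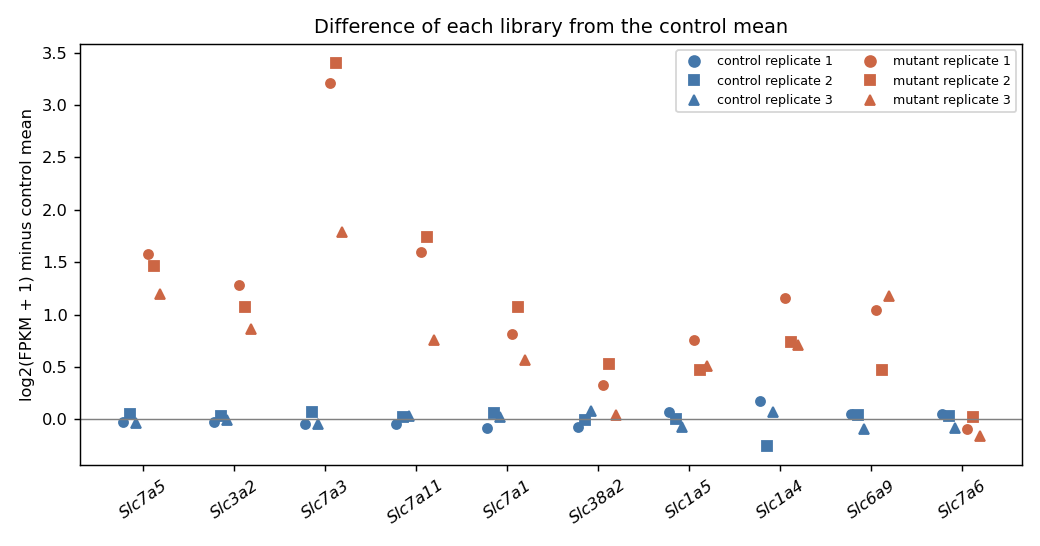
Difference of each library from the control mean, in log2(FPKM + 1), for the 10 transporter genes, with controls in blue and mutants in red. Control points stay near 0, and the triangle of mutant replicate 3 is the lowest mutant point for every gene but Slc1a5 and Slc6a9.

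The other amino acid transporters of the SLC1, SLC3, SLC6, SLC7, SLC16, SLC36, SLC38, SLC43 and SLC66 families, with the lysosomal cystine exporter gene Ctns, were listed by name. All 45 were in the table, and 21 passed the filter. Of these, 2 had an unadjusted p under 0.05 with a higher level in mutants and 1 with a lower level, where 5.57% of all genes tested were higher, 9.43% were lower and 15.0% were called in either direction. None had an adjusted p under 0.05 by limma. The median log2 fold change was 0.02 over the 21 genes, between -0.30 and 0.83. Mutant libraries were all above controls in 2 genes and all below in 2, where 7.74% of all genes tested were above and 13.0% below. The count of 3 was 5 without the filter and 5 without mutant replicate 2. The split of all called genes depended on scaling, since 739 of 1990 were higher as deposited, 365 of 1992 after rescaling to equal sums and 965 of 2020 when erythroid markers were left out of those sums.

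Slc38a5, a glutamine and serine carrier known from red cell precursors, was at 7.62, 9.7 and 7.97 FPKM in controls, against 15.1, 10.8 and 23.5 FPKM in mutants. Mutants differed from controls by 0.83 on the log2 scale (SE 0.24, limma adjusted p = 0.186). The difference was 0.48 with the erythroid marker covariate, 0.24 for the most abundant transcript alone and 0.55 without mutant replicate 3. With the covariate and for that transcript the unadjusted p was not under 0.05. Slc7a7, a light chain that exchanges cationic for neutral amino acids, was at 3.93, 3.3 and 3.7 FPKM in controls, against 5.57, 7.23 and 4.19 FPKM in mutants. Mutants differed from controls by 0.50 on the log2 scale (SE 0.17, limma adjusted p = 0.232), but by -0.28 for the most abundant transcript alone and by 0.33 without mutant replicate 2, and without control replicate 2 the unadjusted p was not under 0.05. Slc6a6, the taurine carrier, went the other way, from 20.1, 16.1 and 19.1 FPKM in control to 13.1, 15.9 and 15.2 FPKM in mutant replicates 1, 2 and 3, with a log2 fold change of -0.30 (SE 0.11, limma adjusted p = 0.27). Its unadjusted p was not under 0.05 without control replicate 1, control replicate 3 or mutant replicate 1, for the most abundant transcript or with the erythroid covariate. For the abundant system A carriers Slc38a1 and Slc38a4 the groups overlapped. Slc38a1 was at 26.7, 26.9 and 28.1 FPKM in controls, against 27.6, 36.1 and 27.7 FPKM in mutants (95% interval of the log2 fold change -0.11 to 0.40), and Slc38a4 was at 57.1, 61.9 and 62.0 FPKM against 52.1, 64.7 and 55.7 FPKM (interval -0.30 to 0.15). Both were singled out after their values were seen.

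**Figure D5:**
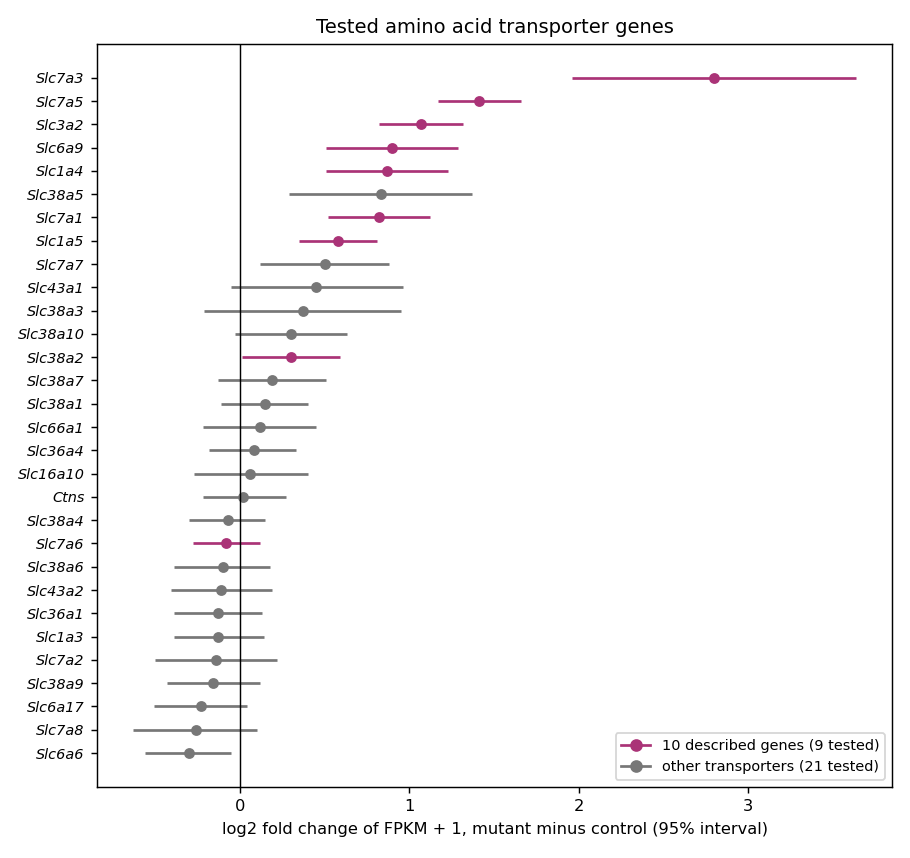
Log2 fold change of FPKM + 1 between mutant and control hearts, with its 95% interval, for the 9 tested genes of the 10 described here in purple and the 21 other transporters in grey. The upper end is held mostly by purple points, which were chosen with this comparison in view, and most grey intervals cross 0.

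Leucine and arginine that enter through these carriers are sensed by proteins that act on the kinase complex mTORC1. Of 39 genes of this sensing arm and of mTORC1 itself, 37 were tested, 4 had an unadjusted p under 0.05 with a higher and 2 with a lower level in mutants, and 0 had an adjusted p under 0.05 by limma. These 6 of 37 are near the 15.0% of all genes tested that were called in either direction, a share made up of 5.57% of all genes higher and 9.43% lower. The count of 6 was 2 without control replicate 1, control replicate 3 or mutant replicate 2, and 3 without mutant replicate 1. The median log2 fold change was -0.02, that of all genes. Sesn2, a leucine sensor that restrains mTORC1, was at 2.77, 3.18 and 2.49 FPKM in controls, against 10.9, 9.43 and 4.95 FPKM in mutants, a log2 fold change of 1.25 (SE 0.24, limma adjusted p = 0.106). Over the alternatives the adjusted p ranged from 0.000824, without mutant replicate 3, to 0.366, without control replicate 1. Ddit4, an inhibitor of mTORC1, was at 7.17, 7.06 and 7.55 FPKM in controls, against 16.2, 11.6 and 7.21 FPKM in mutants, with mutant replicate 3 among the controls. Mutants differed from controls by 0.56 on the log2 scale (SE 0.23, limma adjusted p = 0.313), by 0.84 without mutant replicate 3 and by 0.30 without mutant replicate 1. The adjusted p ranged from 0.0248 to 0.61 over the alternatives, and the unadjusted p was not under 0.05 when any single library but mutant replicate 3 was left out, without the filter, for the most abundant transcript or with the erythroid covariate. Lamtor4, a subunit of the lysosomal anchor of the complex, was lower in every mutant library (log2 fold change -0.39, SE 0.08, limma adjusted p = 0.134), and Fnip2, a partner of folliculin, was higher in every mutant library (0.23, SE 0.09, limma adjusted p = 0.294). For Fnip2 the unadjusted p was not under 0.05 with equal sums, where the difference was 0.15, or when any single library but mutant replicate 3 was left out.

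Over the 6 libraries, the genes outside the 10 whose log2(FPKM + 1) followed that of Slc7a5 most closely, after the control mean of each was subtracted, were Pycr1, Adm2, Atf4, Mast3 and Phgdh. Their root mean square difference from Slc7a5 was 0.15, 0.17, 0.17, 0.22 and 0.23 log2 units. Atf4 was at 52.5, 58.1 and 57.5 FPKM in controls, against 152, 137 and 103 FPKM in mutants. Adm2 was at 0.432, 0.446 and 0.328 FPKM in controls, against 3.78, 3.44 and 1.61 FPKM in mutants, and Mast3 is listed at 0 in every control. Adm2 and Mast3 passed the filter only through the mutant libraries, so their places here are tied to their being high there. The root mean square difference is a measure of likeness in size over 6 libraries, and says nothing of shared function or control.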

How the data were processed

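RNA from pooled hearts of 3 control and 3 mutant replicates was sequenced after removal of ribosomal RNA. The authors deposited 1 table of FPKM for 60776 transcripts, without counts. The submitters' processing notes name Bowtie2 2.2.8, HISAT2, StringTie 1.3.1 and Cuffdiff 2.1.1, and the build mm9. No coordinates were joined to this table. Promoter windows are from RefSeq on another build and were matched by symbol.

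Transcripts were summed per gene, after the version was cut from gene identifiers, and Pqlc2, Gatsl3 and Gatsl2 were read as Slc66a1, Castor1 and Castor2. Log2(FPKM + 1) was fitted by limma 3.58.1 with a variance trend, run in R 4.3.3, over 13260 genes that reached 1 FPKM in 3 or more libraries, with Benjamini-Hochberg adjustment of p over all of them. The script was tested on simulated data. Since FPKM hold no counts, count models were not run, and library depth is unknown.

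The 10 genes and the other lists were chosen with earlier results of these data known. Beside the 10 genes, the rule for named genes took Mrps5, up to 6 other transporters and up to 4 mTORC1 genes with the smallest p under 0.05, and the 5 genes nearest to Slc7a5. Outside this rule, Slc43a1, Slc38a10, Slc16a10, Slc38a1 and Slc38a4 were named after their values were seen. Alternatives were the replicate number as a block, another pseudocount, other filters and scalings, single transcripts, an erythroid covariate and leaving out each library.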

Additional observations from a re-analysis of the deposited data

How the results depend on the processing

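The count of transporters among the 10 with an unadjusted p under 0.05 lay between 6 and 8 over all alternatives. Slc7a5 kept a limma adjusted p under 0.05 in each of its 15, the largest being 0.049 with the replicate block. The 10 genes were picked with this comparison known, so nothing is read from these values. The count of 2 at an adjusted p under 0.05 was 1 with the replicate block, without the filter, for the most abundant transcript alone and with the erythroid covariate, 5 with equal sums, and 1 to 6 when 1 library was left out. Slc3a2 was the gene lost in each case with a count of 1. Among all genes the adjusted count was 11, against 4 with the replicate block and for the most abundant transcript, 6 without the filter, 111 with equal sums and 5 to 270 when 1 library was left out (121 without mutant replicate 2 and 270 without mutant replicate 3), and the unadjusted count of 1990 was 1216 to 2167 when 1 library was left out (1216 without control replicate 1). Of the other transporters 3 were called, 5 without the filter and 2 to 5 when 1 library was left out. Of the 37 mTORC1 genes 6 were called, near the 15.0% of all genes, and 3 with the erythroid covariate and 2 to 5 when 1 library was left out. Slc7a7 changed sign to -0.28 for its most abundant transcript, and the ratio of Slc7a3 to Slc7a1 in mutants moved from 0.439 to 0.225. The log2 fold change of Mrps5 was -0.44, and lay between -0.66 (without mutant replicate 3) and -0.23 (without mutant replicate 1) when 1 library was left out. Deviations of same-numbered libraries from the group means correlated at 0.217, 0.11 and 0.0901, each above those of differently numbered libraries, at -0.171 to 0.0488. Whether the numbers pair the libraries was thus not settled. The main fit took them as unpaired, with the replicate block as an alternative. Slc7a3 did not pass the filter for its most abundant transcript or at a mean FPKM of at least 5, and has no fold change there. The causes of these differences were not tested. Groups of 3 and unknown depth limit what can be told of Slc7a11 and of other genes with low FPKM.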
